A study of Sorghum bicolor with 12 samples.

Results

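The salt response of Roma, a sweet sorghum line (Sorghum bicolor) that is sensitive to salt, was described in roots by comparing 3 Roma-salt libraries with 3 Roma-CK libraries. Roma-salt plants were exposed to 150 mM NaCl for 24 h, a concentration taken from the methods of the study because the sample labels give only the duration, and it was reached in steps. Roma-CK plants received no added NaCl. The tolerant line M-81E, with 3 salt and 3 CK libraries, was used here only to test whether a response differed between the lines. The deposited table gives FPKM, a measure of fragments scaled by transcript length and by the size of the library, for 34352 loci. Genes were taken as members if the locus carried a SORBI identifier, the name of an annotated sorghum gene, and averaged at least 1 FPKM over the 6 Roma libraries. This rule held for 15669 of 30167 loci with a SORBI identifier (51.9%). Of the members, 1134 loci carried several gene names and their FPKM cannot be divided between them. GO terms were attached to 13632 members, while the description of 14650 members was hypothetical, uncharacterized or of a similar kind. Functions below therefore come mostly from GO terms and enzyme numbers, which were transferred from other species and were not tested in sorghum.

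Salt reaches the root first, where it lowers the availability of water and brings in sodium and chloride. Roots are known to respond through abscisic acid signaling, compatible solutes such as proline and raffinose, hydrophilic protective proteins, proton pumps that energize ion transport, and enzymes that remove hydrogen peroxide. Growth slows at the same time, and with it the loosening and building of cell walls. Sensitive lines are of interest because the same functions can be followed in a root that tolerates the treatment poorly.

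In Roma roots, the share of up-regulated members was above that of all members among genes for chitin breakdown, hydrogen peroxide, heat and water deprivation, and the share of down-regulated members was above it among genes for cell wall loosening, lignin-related steps, water channels and phosphate starvation. Chitinases (14.3% down), hydrogen peroxide (15.2%) and water deprivation (6.04%) were also above the share of all members in the down direction, so these lists moved in both directions. Phosphate starvation (7.41% up) and lignin synthesis (5.19%) were likewise above the share of all members in the up direction. A member was called, and is described as up-regulated or down-regulated, where the limma p on log2(FPKM + 1) was under 0.05 and the log2 ratio of mean FPKM, salt over CK, was at least 1 in size. Calls numbered 644 up (4.11% of the members) and 731 down (4.67%), beside 5.15% up and 4.44% down over all 32264 loci tested. The median log2 ratio was -0.01 over the members and 0.01 over all loci tested. After Benjamini-Hochberg adjustment over all loci tested, the limma p was under 0.05 for 253 members with higher values in Roma-salt (1.61%) and 201 with lower values (1.28%), beside 1.04% and 0.784% of all loci tested. The 3 salt values lay outside the range of the 3 CK values for 631 of the up calls and 691 of the down calls, whereas salt lay wholly above CK at 16.4% and wholly below CK at 15.8% of all members. The mean was under 1 FPKM in Roma-CK for 214 of the up calls and under 1 FPKM in Roma-salt for 201 of the down calls, so these members entered through the group in which they were high. Genes named below with a mean under 1 FPKM in Roma-CK or Roma-salt are among them. Most genes named below passed the adjusted p as well, and exceptions are marked by their value. Most were also named on condition that their salt and CK values did not overlap. Separate groups at a named gene therefore describe the selection and add no support. Leaving out any 1 of the 6 libraries reduced the members past the adjusted p to between 16 (without Roma-salt1) and 84 (without Roma-salt3) up, and to between 32 and 74 down. The p-values measure the spread between these libraries, which the methods of the study describe as biological replicates. In a check of the fit on simulated loci, 12.3% of those past the adjusted p were unchanged, above the nominal rate.

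The 6 libraries had similar sums of FPKM, a measure already scaled by library size. FPKM summed to between 282710 and 305677 in Roma-salt and between 284268 and 301374 in Roma-CK, and members held 87.2 to 94.1% and 88.5 to 91.5% of these sums. The table holds no read counts, but the spacing of low values put the depth at 1.22 to 1.28 times that of Roma-CK1 in the salt libraries and at 1.00 to 1.15 times in the CK libraries. By this estimate every salt library was deeper than every CK library, so depth and salt cannot be told apart. Pearson correlations of log2(FPKM + 1) over the members were 0.881 to 0.900 within a group and 0.823 to 0.864 between groups. Roma-salt3 was the highest salt library at 64.3% of the up calls, against 44.5% of all members, and Roma-CK3 was the highest CK library at 50.2% of the down calls. Genes annotated with photosynthesis, a sign of green tissue, had 31 members of 85 loci and summed to 351 to 397 FPKM in Roma-salt and to 474 to 551 FPKM in Roma-CK. Root hair genes (53 members of 86 loci) summed to 2002 to 2106 FPKM in Roma-salt and 1904 to 1962 FPKM in Roma-CK, and Casparian strip genes (10 members of 11 loci) to 70 to 89.9 FPKM in Roma-salt and 81.8 to 94.3 FPKM in Roma-CK. Abundant members weigh most in such sums. The median log2 ratio was 0.03 for photosynthesis, with 17 members above 0 and 14 below. For root hairs it was -0.06 (22 above and 31 below), and for the Casparian strip -0.14 (3 and 7). A change in the share of a cell type and a change of RNA per cell cannot be told apart in these samples, and the part of these markers in the results below was not tested.

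**Figure D1:**
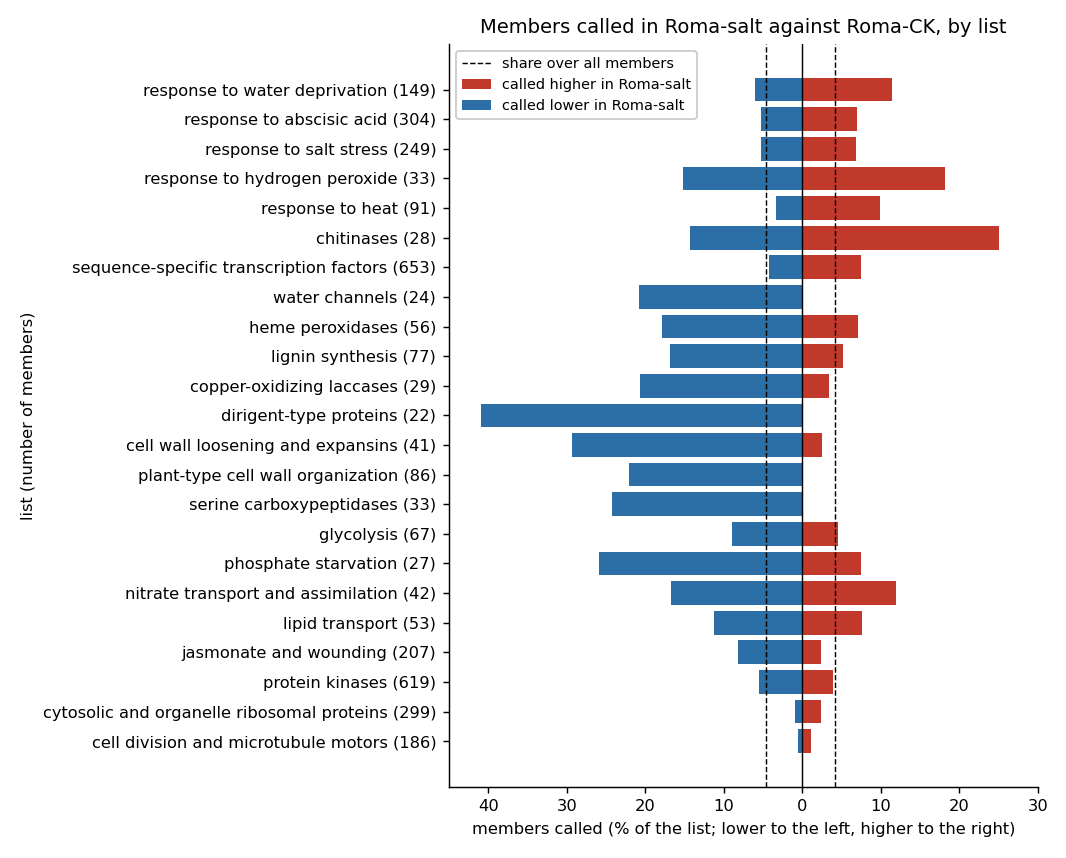
Share of the members of each list that were called, in percent of the list, with up-regulated members in red to the right and down-regulated members in blue to the left. Dashed lines mark the shares over all 15669 members (4.11% up and 4.67% down), and the bars of dirigent-type proteins and of cell wall loosening reach furthest to the left (40.9% and 29.3%).

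Genes of the response to water deprivation, salt and abscisic acid moved in both directions. Of 149 members annotated with water deprivation, 17 were up-regulated (11.4%) and 9 down-regulated (6.04%), with a median log2 ratio of 0.16. Salt stress had 249 members, of which 17 rose and 13 fell (median 0.02), and abscisic acid had 304, of which 21 rose and 16 fell (median 0.06). Without Roma-CK3 the salt stress list had 12 up and 13 down calls, and without Roma-CK2 it had 14 of each. Leaving out Roma-salt3 lowered the number of down-regulated abscisic acid members to 8, and leaving out Roma-CK1 lowered it to 9. The 6.83% and 6.91% of up calls in the salt and abscisic acid lists are to be read beside the 4.11% over all members.

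The only member described as a late embryogenesis abundant protein, SORBI_3009G215700, belongs to a class of hydrophilic proteins that protect cells during drying. It had 335, 398 and 920 FPKM in Roma-salt, against 5.43, 7.43 and 5.74 FPKM in Roma-CK. Every salt library was far above the CK libraries, and Roma-salt3 held more than both others together. SORBI_3003G356000 carries the enzyme numbers of the bifunctional enzyme that starts proline synthesis from glutamate. It had 22.9, 24.3 and 33.0 FPKM in Roma-salt, against 11.4, 9.59 and 8.82 FPKM in Roma-CK, and rose 2.69-fold without overlap (limma log2 fold change 1.33, standard error 0.17, adjusted p = 0.034). Of the 27 members for proline and trehalose synthesis, 3 were up-regulated and 0 were down-regulated (limma p under 0.05 with the fold threshold), with a median log2 ratio of 0.24. Leaving out Roma-CK2 or any of the salt libraries gave 1 down call. SORBI_3004G232300, annotated with calcium-dependent phospholipid binding and responses to drought, salt, heat and cold, had 67.4, 73.6 and 103 FPKM in Roma-salt, against 33.7, 28.4 and 30.3 FPKM in Roma-CK. It rose 2.64-fold, and the groups did not overlap (limma adjusted p = 0.0373).

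Enzymes that transfer galactose from galactinol to sucrose, the step that makes raffinose, divided into members that rose and members that fell. There were 7 such members, of which 3 rose and 2 fell. SORBI_3003G052300 had 17.9, 22.2 and 16.6 FPKM in Roma-salt, against 1.66, 2.35 and 2.71 FPKM in Roma-CK, and was 8.44-fold higher (limma adjusted p = 0.00895). SORBI_3001G044800, which is also annotated with raffinose breakdown, rose 2.51-fold and had 16.0, 18.5 and 14.5 FPKM in Roma-salt, against 6.07, 5.98 and 7.43 FPKM in Roma-CK. Within each of these genes the salt and CK libraries formed separate groups. SORBI_3007G219900 moved the other way, with 2.50, 3.64 and 2.36 FPKM in Roma-salt, against 9.97, 16.1 and 12.5 FPKM in Roma-CK. SORBI_3006G122400 had 2.46, 2.49 and 2.68 FPKM in Roma-salt, against 6.6, 13 and 12.1 FPKM in Roma-CK. These changes were 4.53-fold and 4.15-fold decreases (limma adjusted p = 0.0305 and 0.0459), so the family had no common direction, and its median log2 ratio was -0.53. The 7 members together nevertheless summed to 128, 154 and 181 FPKM in Roma-salt, against 68, 86.4 and 106 FPKM in Roma-CK, without overlap.

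In abscisic acid perception, SORBI_3006G198800 is annotated as a receptor that binds abscisic acid and inhibits protein phosphatases. It fell to 19.0, 14.4 and 18.3 FPKM in Roma-salt, against 56.8, 43.1 and 55.6 FPKM in Roma-CK. The decrease was 3-fold with no overlap (limma adjusted p = 0.0272). A chitinase-type gene with terms for salt stress, water deprivation and root epidermis, SORBI_3002G252000, fell 5.73-fold, with 7.11, 5.69 and 7.17 FPKM in Roma-salt, against 41.9, 39.2 and 33.3 FPKM in Roma-CK (limma adjusted p = 0.00743). Down calls in the stress lists thus included genes of hormone perception and of the cell wall.

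The lists for ion transport were small and held few calls. The plasma membrane proton ATPases pump protons out of the cell and drive secondary transport of ions and nutrients. Of their 8 members, SORBI_3001G132400 had 24.1, 23.2 and 44.9 FPKM in Roma-salt, against 3.77, 3.21 and 3.37 FPKM in Roma-CK, an 8.91-fold increase (limma log2 fold change 2.77, standard error 0.27, adjusted p = 0.0228). Its salt values were all above those of CK, with Roma-salt3 the highest, and 1 further member of the list was called down. These calls were 12.5% of the list in each direction. Among 21 members for sodium and potassium transport, 1 was up-regulated and 0 were down-regulated by limma and the fold threshold, and the median log2 ratio was -0.02. The up call was 4.76% of the list, near the 4.11% of all members. Without Roma-CK1 there were 2 up calls, and without Roma-salt2 there were 2 up calls and 1 down call. The called member, SORBI_3001G424400, carries terms for both potassium channel and protein phosphatase activity. It had 11.1, 12.6 and 14.7 FPKM in Roma-salt, against 5.52, 5.94 and 5.17 FPKM in Roma-CK (2.31-fold, limma adjusted p = 0.031).

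Water channels, the aquaporins that let water cross membranes, were down-regulated at 5 of 24 members (20.8%) and up-regulated at 0 (limma p under 0.05 with the fold threshold), and their median log2 ratio was -0.41. None of these 5 calls passed the adjusted p in limma, while 3 other members with lower values did so at a ratio under the fold threshold. The called genes below were chosen after their values were seen, outside the naming rule used for other genes. The down calls became 4 without Roma-CK2, Roma-CK3, Roma-salt1 or Roma-salt3. The members summed to 902, 1019 and 1037 FPKM in Roma-salt, against 1126, 1203 and 1290 FPKM in Roma-CK, without overlap. SORBI_3007G039600 had 0.933, 1.39 and 0.193 FPKM in Roma-salt, against 8.49, 10.2 and 44.5 FPKM in Roma-CK (limma adjusted p = 0.0788). Roma-CK3 stood far above the other CK libraries there. The other calls were SORBI_3001G195800, SORBI_3002G125700, SORBI_3001G389900 and the locus with the names SORBI_3006G170500 and SORBI_3006G170600, with log2 ratios of -1.29, -1.68, -1.48 and -1.41. The most abundant member, SORBI_3004G288700, had 296, 279 and 318 FPKM in Roma-salt, against 129, 201 and 195 FPKM in Roma-CK, and its ratio of 1.70 was under the fold threshold (limma adjusted p = 0.134).

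Among enzymes acting on hydrogen peroxide, a catalase rose, and peroxidases had more down than up calls. Of 33 members annotated with the response to hydrogen peroxide, 6 rose and 5 fell, with a median log2 ratio of 0.34. Without Roma-CK2 there were 5 up and 6 down calls. There were 3 catalase members, of which 1 rose. This gene, SORBI_3004G011566, which breaks hydrogen peroxide into water and oxygen, had 91.8, 66.3 and 112 FPKM in Roma-salt, against 26.6, 24.5 and 19.8 FPKM in Roma-CK. It rose 3.81-fold without overlap (limma adjusted p = 0.031). Of 56 heme peroxidases and related members, 4 rose (7.14%) and 10 fell (17.9%), with a median of -0.18 and 24 members above 0. SORBI_3003G121000, a secreted peroxidase with a lignin term, was among those that rose, with 27.1, 24.7 and 28.4 FPKM in Roma-salt, against 7.11, 6.89 and 8.14 FPKM in Roma-CK (3.62-fold, limma adjusted p = 0.00743). Spread within its groups was small beside the difference. A pair of wall-located peroxidases fell. SORBI_3003G140700 had 59.0, 55.9 and 40.3 FPKM in Roma-salt, against 177, 183 and 180 FPKM in Roma-CK (3.48-fold lower, limma adjusted p = 0.021). SORBI_3002G003500 had 0.217, 0.571 and 0.0678 FPKM in Roma-salt, against 6.33, 6.10 and 15.2 FPKM in Roma-CK. It was 32.3-fold lower, with all salt values under 1 FPKM (limma adjusted p = 0.0342).

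SORBI_3002G421600, a disulfide oxidoreductase with terms for redox homeostasis and sulfate assimilation, was down-regulated. It had 12.5, 6.91 and 5.16 FPKM in Roma-salt, against 74.5, 84.1 and 113 FPKM in Roma-CK, an 11.1-fold decrease (limma log2 fold change -3.37, standard error 0.32, adjusted p = 0.0228). No salt library came near the lowest CK library. Glutathione transferases, which attach glutathione to toxic compounds, had 6 up calls and 2 down calls among 76 members and a median log2 ratio of -0.03. Of these, SORBI_3001G065800 had 51.6, 52.7 and 64.0 FPKM in Roma-salt, against 21.6, 24.4 and 28.3 FPKM in Roma-CK (2.26-fold, limma adjusted p = 0.0313).

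Heat and protein folding were partly separate. Of 91 members annotated with the response to heat, 9 rose (9.89%) and 3 fell (3.3%), and 66 had a higher mean in Roma-salt (median log2 ratio 0.16). Of 149 members annotated with protein folding, 4 rose and 5 fell, with a median of 0.01, and the down calls became 3 without Roma-CK1 and 2 without Roma-CK2 or Roma-salt2. SORBI_3001G418600, with terms for protein folding, ATP binding and responses to heat and virus, had 8.76, 12.4 and 17.5 FPKM in Roma-salt, against 0.345, 0.674 and 1.04 FPKM in Roma-CK. The increase was 18.8-fold (limma adjusted p = 0.022). SORBI_3003G082000, with terms for heat and protein oligomerization, had 4.09, 5.34 and 10.1 FPKM in Roma-salt, against 0.434, 0.505 and a listed 0 FPKM in Roma-CK (limma adjusted p = 0.0391). Both genes averaged under 1 FPKM in Roma-CK and so entered through Roma-salt, and both were highest in Roma-salt3.

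**Figure D2:**
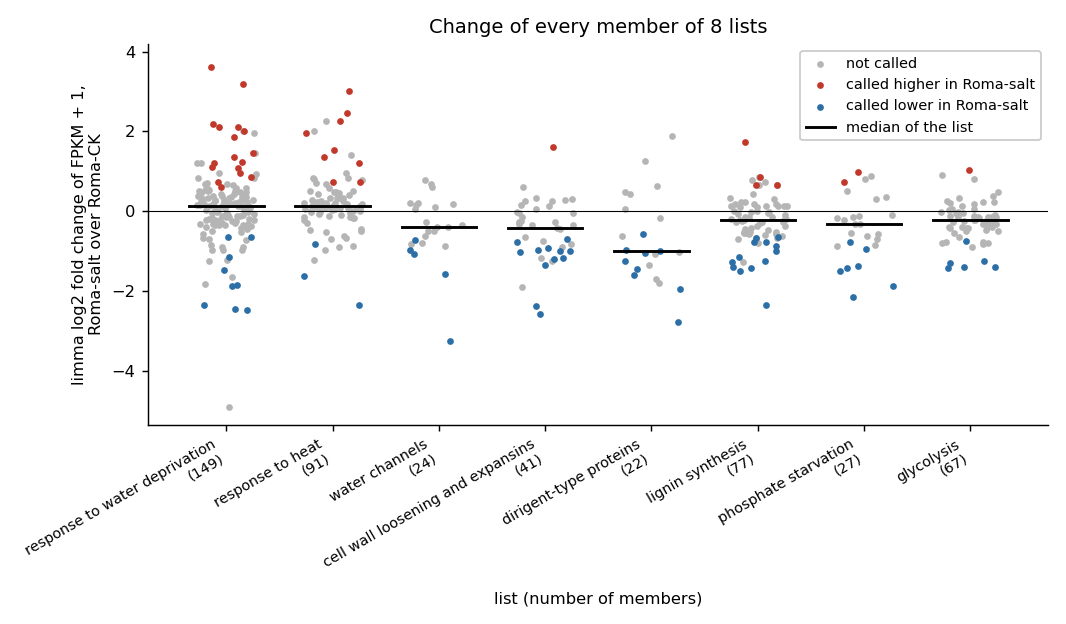
Limma log2 fold change of FPKM + 1, Roma-salt over Roma-CK, for every member of 8 lists, each point being a member and each black bar the median of the plotted values. Red points were called up and blue points down, and the dirigent-type proteins and the wall loosening genes sit mostly below 0 while calls for water deprivation and heat lie mostly above it.

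Named members of carbon metabolism changed in both directions. Glycolysis splits sugar phosphates into pyruvate, which mitochondria oxidize through pyruvate dehydrogenase and the tricarboxylic acid cycle. Of 67 glycolysis members, 3 rose and 6 fell, and 50 had a lower mean in Roma-salt (median log2 ratio -0.28). The rising calls of this list included SORBI_3010G101300, annotated as a subunit of pyruvate dehydrogenase and described again below. The falling calls included abundant enzymes of the middle of the path. SORBI_3004G205100, a glyceraldehyde-3-phosphate dehydrogenase, had 201, 196 and 174 FPKM in Roma-salt, against 500, 468 and 444 FPKM in Roma-CK (2.47-fold lower, limma adjusted p = 0.0284). SORBI_3003G352300, a triose-phosphate isomerase, had 36.6, 45.8 and 41.4 FPKM in Roma-salt, against 133, 108 and 97.3 FPKM in Roma-CK (2.74-fold lower, limma adjusted p = 0.0285). The groups were apart at both enzymes.

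Phosphoglycerate mutase exists in forms that do or do not need a bisphosphoglycerate cofactor, and annotated members of the forms moved in opposite directions. SORBI_3001G384100, of the independent form, had 30.6, 33.2 and 70.4 FPKM in Roma-salt, against 1.83, 1.87 and 2.86 FPKM in Roma-CK, a 20.5-fold increase (limma log2 fold change 3.76, standard error 0.35, adjusted p = 0.0217). The locus with the names SORBI_3004G234000 and SORBI_3004G234100, with a term for the dependent form, had 26.6, 29.4 and 19.7 FPKM in Roma-salt, against 69.4, 63.0 and 71.4 FPKM in Roma-CK. It was 2.69-fold lower (limma adjusted p = 0.0305), and the locus holds a second gene whose share is unknown. Starch breakdown moved down at SORBI_3001G293800, a beta-amylase that releases maltose, with 9.14, 6.03 and 5.86 FPKM in Roma-salt, against 38.8, 51.8 and 92.6 FPKM in Roma-CK (8.71-fold lower, limma adjusted p = 0.0313).

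Of 37 members for the tricarboxylic acid cycle and malate, 2 were up-regulated (5.41%, beside 4.11% of all members) and 0 down-regulated (limma p under 0.05 with the fold threshold), and the median log2 ratio was -0.02. The called members, described next, averaged under 1 FPKM in Roma-CK and so entered through Roma-salt, as did the pyruvate dehydrogenase and import genes after them. SORBI_3003G292400, a malic enzyme that converts malate into pyruvate, had 15, 16 and 54.6 FPKM in Roma-salt, against 0.406, 0.427 and 0.484 FPKM in Roma-CK. SORBI_3002G316900, an aconitase, had 12.1, 14.7 and 29.0 FPKM in Roma-salt, against 0.628, 0.558 and 0.789 FPKM in Roma-CK (28.3-fold, limma adjusted p = 0.0217). SORBI_3010G101300, annotated as a subunit of pyruvate dehydrogenase, had 4.55, 5.18 and 9.52 FPKM in Roma-salt, against 0.851, 0.763 and 0.655 FPKM in Roma-CK (8.48-fold, limma adjusted p = 0.0355). At each of these genes Roma-salt3 had the highest value, and the lowest salt value was still above the highest CK value. The same held for a pair of genes for the translocase that imports proteins into the mitochondrial matrix. SORBI_3001G396900 had 7.88, 8.98 and 23.1 FPKM in Roma-salt, against 0.225, 0.346 and 0.649 FPKM in Roma-CK (32.8-fold, limma adjusted p = 0.0341). SORBI_3003G144500 had 5.23, 4.16 and 12.1 FPKM in Roma-salt, against 0.433, 0.247 and 0.173 FPKM in Roma-CK (25.2-fold, limma adjusted p = 0.0426). The 23 members for import into mitochondria had 2 up and 2 down calls and a median log2 ratio of -0.22. The down calls became 0 without Roma-CK3 and 1 without Roma-CK1 or any of the salt libraries.

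**Figure D3:**
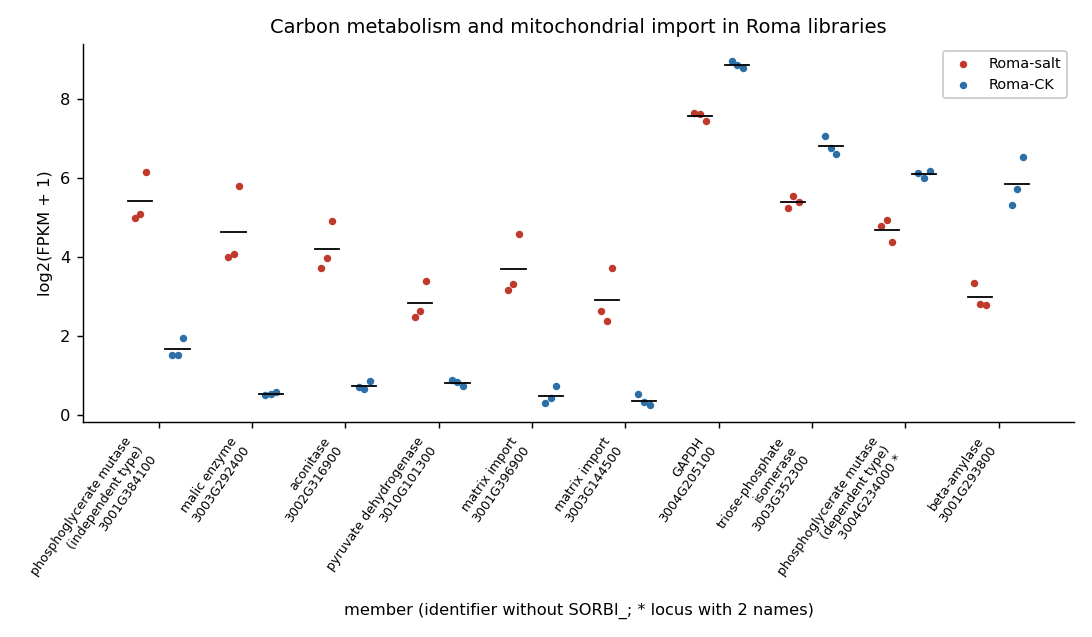
Values of log2(FPKM + 1) in the 3 Roma-salt libraries (red, left of each pair) and the 3 Roma-CK libraries (blue, right) for 10 members of carbon metabolism and mitochondrial import, with the mean as a bar. The groups are apart at all 10 members, as the naming rule required, and 1 salt library, Roma-salt3, stands above the other salt libraries at the 6 members that rose.

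Cell wall genes fell more often than they rose. Expansins and related proteins loosen the wall so that cells can elongate. Of 41 members for wall loosening, 12 fell (29.3%) and 1 rose (2.44%), with a median log2 ratio of -0.65, and without Roma-salt2 there were 2 up calls. Together they summed to 317, 332 and 260 FPKM in Roma-salt, against 436, 455 and 400 FPKM in Roma-CK, so the groups did not overlap. SORBI_3001G238000 had 1.5, 2.38 and 0.812 FPKM in Roma-salt, against 13.1, 11.8 and 16.8 FPKM in Roma-CK, an 8.90-fold decrease (limma log2 fold change -2.57, standard error 0.26, adjusted p = 0.0265). The more abundant SORBI_3001G300500 had 37.1, 25.0 and 29.5 FPKM in Roma-salt, against 81.7, 53.7 and 76.7 FPKM in Roma-CK, and its 2.32-fold decrease did not pass the adjusted p (limma, 0.0665). Of the 12 down calls, SORBI_3001G238000 alone passed the adjusted p in limma. Close relatives in this family, may share reads, and how the study divided such reads was not given in the sources used here.

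The single wall loosening member that rose was of another kind. The locus with the names SORBI_3006G205600 and SORBI_3006G205500 carries the enzyme number of xyloglucan endotransglucosylases, which cut and rejoin the hemicellulose chains between cellulose fibers. It had 61.4, 64.3 and 67.0 FPKM in Roma-salt, against 23.4, 21.5 and 17.1 FPKM in Roma-CK, 3.10-fold higher without overlap (limma adjusted p = 0.0165). Of 24 members for xyloglucan metabolism, 2 rose (8.33%) and 0 fell by limma and the fold threshold, with a median log2 ratio of 0.06. Together they summed to 1291, 1218 and 1364 FPKM in Roma-salt, against 928, 846 and 995 FPKM in Roma-CK, higher without overlap.

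Lignin stiffens walls of water-conducting and barrier tissues, and lignans are made from the same precursors. Of 77 lignin members, 13 fell (16.9%) and 4 rose (5.19%), with a median log2 ratio of -0.28. Dirigent-type proteins, which guide the coupling of these precursors, had 9 down calls and 0 up calls by limma and the fold threshold among 22 members (40.9%), with a median of -1.10, and 1 up call without Roma-CK2. They were added as a list after the data had been seen. The dirigent-type members summed to 97.7, 112 and 98.9 FPKM in Roma-salt, against 173, 151 and 177 FPKM in Roma-CK. SORBI_3005G218500 had 1.03, 0.841 and 0.3 FPKM in Roma-salt, against 3.71, 3.92 and 3.37 FPKM in Roma-CK (5.07-fold lower, limma adjusted p = 0.0395). SORBI_3001G507100 was listed at 0 in all Roma-salt libraries and at 3.90, 2.24 and 2.65 FPKM in Roma-CK (limma adjusted p = 0.022). These 2 were the dirigent-type members past the adjusted p. A value listed at 0 can be a failed estimate, so no fold is given for it.

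Members for further steps of lignin and phenolic synthesis fell as well. SORBI_3003G352700, a copper oxidase of the laccase type that couples lignin precursors, had 41.4, 33.8 and 32.0 FPKM in Roma-salt, against 87.1, 82.4 and 72.8 FPKM in Roma-CK (2.26-fold lower, limma adjusted p = 0.0298). The laccase-type list had 6 down calls and 1 up call among 29 members, and between 3 (without Roma-salt3) and 5 down calls when a library was omitted. SORBI_3009G197400, an O-methyltransferase for aromatic compounds, had 0.968, 1.31 and 0.812 FPKM in Roma-salt, against 6.48, 10.2 and 7.19 FPKM in Roma-CK (7.73-fold lower, limma adjusted p = 0.0217). Of 86 members with the GO term plant-type cell wall organization, 19 fell (22.1%) and 0 rose by limma and the fold threshold (median -0.54), with 2 up calls without Roma-CK1 or Roma-salt2. The separate GO term cell wall organization had 130 members, of which 7 rose (5.38%) and 9 fell (6.92%), with a median of -0.01. Markers of xylem and secondary walls, 87 members of 122 loci, summed to 1956, 1670 and 1643 FPKM in Roma-salt, against 2135, 1797 and 1843 FPKM in Roma-CK. These ranges overlapped, and their part in the lignin results was not tested. Cellulose synthesis had 2 up and 4 down calls among 30 members and a median of 0.03. Its up calls became 0 without Roma-CK3 and 1 without Roma-salt1 or Roma-salt3, and its down calls 2 without Roma-salt3.

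**Figure D4:**
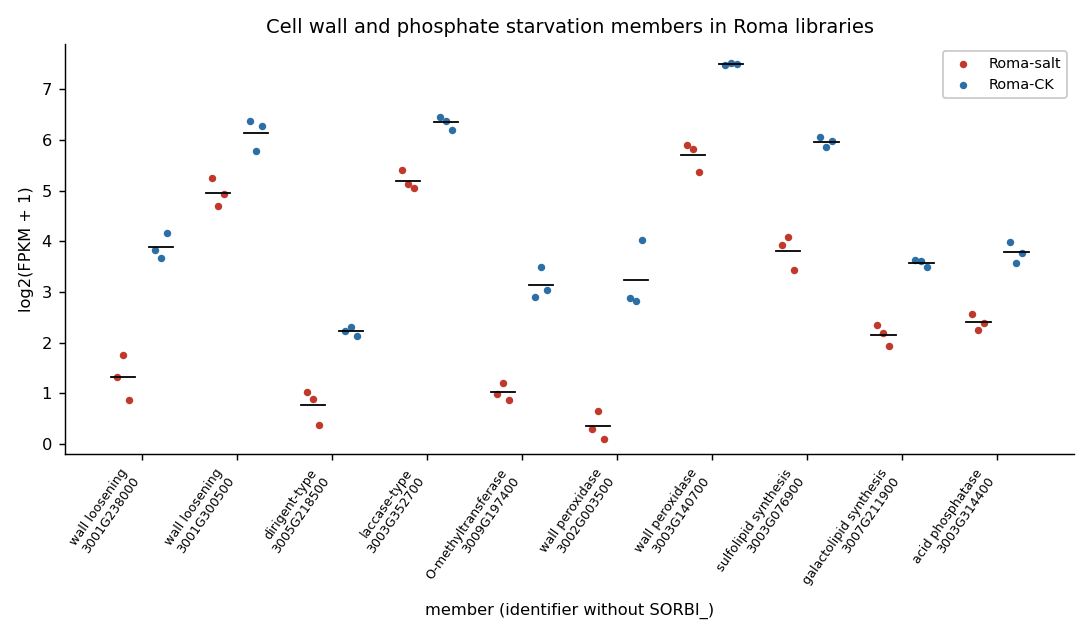
Values of log2(FPKM + 1) in the 3 Roma-salt libraries (red, left of each pair) and the 3 Roma-CK libraries (blue, right) for 10 members of cell wall and phosphate starvation lists, with the mean as a bar. All salt values lie below all CK values at each of the 10 members, which was a condition of naming for all except SORBI_3001G300500.

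Nutrient genes changed in both directions. Plants short of phosphate release it with acid phosphatases and replace phospholipids in membranes by sulfolipids and galactolipids. Of 27 members for phosphate starvation and transport, 7 fell (25.9%) and 2 rose (7.41%), with a median log2 ratio of -0.38. The down calls became 4 without Roma-CK1, and the up calls 1 without Roma-CK2, Roma-CK3 or Roma-salt3. SORBI_3003G076900, annotated as the enzyme of the last step of sulfolipid synthesis, had 14.2, 16.0 and 9.84 FPKM in Roma-salt, against 65.4, 56.8 and 62.5 FPKM in Roma-CK (4.61-fold lower, limma log2 fold change -2.15, standard error 0.18, adjusted p = 0.0178). SORBI_3007G211900, a galactolipid synthase, had 4.08, 3.58 and 2.80 FPKM in Roma-salt, against 11.3, 11.2 and 10.3 FPKM in Roma-CK (3.13-fold lower, limma adjusted p = 0.022). SORBI_3003G314400, an acid phosphatase, had 4.95, 3.76 and 4.21 FPKM in Roma-salt, against 14.9, 10.9 and 12.7 FPKM in Roma-CK (2.98-fold lower, limma adjusted p = 0.0284). The groups were separate at all 3 genes. Because the lipid enzymes carry plastid terms, the lower sum of photosynthesis genes in Roma-salt (351 to 397 FPKM, against 474 to 551 FPKM in Roma-CK) stands beside these values, and its part in them was not tested. The median log2 ratio of the photosynthesis members was 0.03.

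Nitrate transport and assimilation had 5 up calls and 7 down calls among 42 members (median log2 ratio -0.26), and 3 up calls without Roma-CK3. The named member that rose, SORBI_3004G260500, is a transporter with terms for nitrate, oligopeptides and potassium homeostasis. It had 17.6, 15.2 and 16.6 FPKM in Roma-salt, against 0.997, 1.26 and 0.858 FPKM in Roma-CK, a 15.9-fold difference (limma log2 fold change 3.10, standard error 0.12, adjusted p = 0.00284). The spread in either group was a small part of this difference. SORBI_3010G127800, a transporter with terms for nitrate assimilation and oligopeptides, fell 5.91-fold and had 0.634, 0.619 and 0.557 FPKM in Roma-salt, against 3.50, 3.62 and 3.57 FPKM in Roma-CK (limma adjusted p = 0.0141).

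Lipid transfer proteins carry lipids between membranes or into the wall. Of 53 members for lipid transport, 4 rose and 6 fell (median log2 ratio -0.02), and without Roma-salt3 there were 6 up and 5 down calls. SORBI_3006G074200 had 108, 151 and 163 FPKM in Roma-salt, against 16.0, 27.5 and 28.9 FPKM in Roma-CK (5.83-fold higher, limma adjusted p = 0.0291). SORBI_3004G292500 was listed at 0 in the 3 Roma-salt libraries and at 11.1, 10 and 11 FPKM in Roma-CK (limma adjusted p = 0.0016). Its relative SORBI_3004G292800 had 2.62, 2.98 and 1.94 FPKM in Roma-salt, against 10.1, 8.79 and 14.3 FPKM in Roma-CK (4.40-fold lower, limma adjusted p = 0.031). Members of this family thus moved in both directions by large amounts. In suberin synthesis, the fatty acyl reductase SORBI_3005G063400 makes alcohols for the waxy barrier of roots. It had 5.74, 5.86 and 5.08 FPKM in Roma-salt, against 12.7, 12.6 and 13 FPKM in Roma-CK (2.30-fold lower, limma adjusted p = 0.0147), while the 22 members of the suberin and wax list had 1 up and 1 down call, or 2 of each without Roma-salt3.

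Every GO term carried by at least 15 members was also ranked by its share of calls, without a test of the terms. Chitin binding (6 of 23 members, 26.1%) and chitinase activity (7 of 28, 25.0%) had the highest shares of up-regulated members, followed by the response to virus (4 of 21) and to hydrogen peroxide (6 of 33). The response to chitin had 8 up calls and 1 down call among 54 members and a median log2 ratio of 0.52. Chitinases cut chitin, a polymer of fungal walls, and some act on plant walls. SORBI_3003G244600 had 39.4, 41.3 and 31.1 FPKM in Roma-salt, against 13.5, 14 and 10.7 FPKM in Roma-CK (2.92-fold, limma adjusted p = 0.0272). SORBI_3005G169400, with chitin binding and defense terms, had 4.68, 3.48 and 3.19 FPKM in Roma-salt, against 0.866, 0.329 and 0.455 FPKM in Roma-CK (6.88-fold, limma adjusted p = 0.0331). Both were higher in every salt library, while the chitinase-type gene SORBI_3002G252000 described above was lower. The 28 chitinase members summed to 1033, 1331 and 904 FPKM in Roma-salt, against 642, 892 and 1240 FPKM in Roma-CK, so the groups overlapped. The GO term chitin catabolic process had 3 up and 4 down calls among 20 members. The 4 down calls of the chitinase list became 6 without Roma-CK1 and 2 without Roma-CK2 or Roma-salt3.

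The highest shares of down-regulated members belonged to the dirigent term, gluconeogenesis (5 of 15), sexual reproduction (8 of 24) and the microtubule-based process (5 of 16). Loosening of the plant-type wall (12 of 39), phenylpropanoid synthesis (9 of 30), syringal lignin regulation (6 of 21) and nitrate transmembrane transport (5 of 18) were also in the first 10. The wall loosening gene SORBI_3001G300500 described above also carries the term for sexual reproduction, and terms that share genes are not independent.

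Hormone and regulatory lists were less uniform. Jasmonate and wounding had 17 down calls (8.21%) and 5 up calls (2.42%) among 207 members, although the up calls became 9 without Roma-salt2, 8 without Roma-CK2 and 3 without Roma-CK3, Roma-salt1 or Roma-salt3. SORBI_3003G034400, with terms for jasmonate signaling and leaf senescence, had 5.14, 5.37 and 5.99 FPKM in Roma-salt, against 17.6, 22.0 and 30.3 FPKM in Roma-CK (4.24-fold lower, limma adjusted p = 0.0285). Gibberellin had 6 up and 5 down calls among 49 members, with the down calls at 2 without Roma-CK1 or Roma-salt1 and at 3 without Roma-CK3 or Roma-salt2. SORBI_3001G081800, a secreted protein with gibberellin terms, had 75.5, 64.3 and 70.3 FPKM in Roma-salt, against 9.39, 9.32 and 2.50 FPKM in Roma-CK (9.90-fold higher, limma adjusted p = 0.0385). Its groups lay far apart. Sequence-specific transcription factors had 49 up calls (7.50%) and 28 down calls (4.29%) among 653 members, and protein kinases 24 up and 34 down among 619.

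Genes for ribosomes and cell division had lower shares of calls than the members as a whole. Ribosomal proteins had 7 up and 3 down calls among 299 members (2.34% and 1.00%) and a median log2 ratio of -0.07. The up calls became 4 without Roma-CK1 or Roma-salt2, and the down calls 5 to 7 when any library other than Roma-CK1 was left out. Cell division and microtubule motors had 2 up and 1 down among 186, with a median of -0.09, with 4 up calls without Roma-salt1, 1 without Roma-CK3 and 0 without Roma-salt3. Its down calls became 3 without Roma-salt3 and 0 without Roma-CK1, Roma-CK3 or Roma-salt2. A gene for a protein of the large ribosomal subunit was among the up calls. SORBI_3001G383000 had 14.4, 25.1 and 40.2 FPKM in Roma-salt, against 1.79, 2.39 and 1.85 FPKM in Roma-CK, and rose 13.2-fold (limma adjusted p = 0.031).

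The last comparison asked whether the Roma response differed from that of the tolerant line. The interaction of line and treatment in limma over 12 libraries had an adjusted p under 0.05 at 194 members with a higher response in Roma (1.24%) and 175 with a lower one (1.12%), beside 1.01% and 0.795% of all loci tested. With a library left out these ranged from 92 (without M-81E-CK1) to 182 and from 68 (without M-81E-salt1) to 159, and every M-81E library except M-81E-CK3 and M-81E-salt3 moved both by over 1.5 times. Those 2 libraries moved the lower responses by over 1.5 times, to 103 and 114. Among the members called up in Roma, 112 had a higher response than in M-81E and 0 a lower one (limma adjusted p under 0.05), and 99 were also called up in M-81E, where 2.32% of the members and 3.07% of all loci tested were. Among those called down, 99 had a lower and 1 a higher response, and 126 were called down in M-81E, where 2.76% of the members and 3.5% of all loci tested were. Most calls in Roma were therefore not shown to differ between the lines. The calls and the interaction share the Roma libraries, so the near absence of opposite signs follows from the selection and is not a separate result.

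Several genes with large differences changed less in M-81E or had the opposite sign there. SORBI_3004G260500, the nitrate and peptide transporter, had 2.68, 2.61 and 2.39 FPKM in M-81E-salt, against 1.88, 1.93 and 2.21 FPKM in M-81E-CK, and its response in Roma was higher by 2.86 on the log2 scale (limma interaction, adjusted p = 3.05e-05). The ribosomal protein gene SORBI_3001G383000 moved the other way in M-81E, with 7.15, 7.35 and 9.03 FPKM in M-81E-salt, against 13.7, 15.5 and 10.3 FPKM in M-81E-CK (difference 3.76, limma interaction adjusted p = 0.00502). For the lipid transfer gene SORBI_3006G074200, M-81E-salt had 31.8, 30.3 and 32.7 FPKM, against 44.0, 36.0 and 39.4 FPKM in M-81E-CK (difference 2.84, limma interaction adjusted p = 0.00462). In each of these cases the change in M-81E had another sign or size than that in Roma.

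Members for mitochondrial functions differed in both directions. By the limma interaction, 2 members for the tricarboxylic acid cycle and malate had a higher response in Roma and 2 a lower one, and 2 members for mitochondrial import a higher and 1 a lower one. SORBI_3003G144500 stayed between 0.102 and 0.132 FPKM in M-81E-salt, against 0.0271 to 0.103 FPKM in M-81E-CK (difference 2.47, limma interaction adjusted p = 0.0194). Aconitase SORBI_3002G316900 had 1.56, 1.21 and 0.779 FPKM in M-81E-salt, against 0.154, 0.167 and 0.0823 FPKM in M-81E-CK, so it was higher with salt in both lines, and more so in Roma on the log2(FPKM + 1) scale (difference 2.54, limma interaction adjusted p = 0.0138). The raffinose enzyme SORBI_3003G052300 had 10.2, 9.65 and 9.22 FPKM in M-81E-salt, against 11.2, 5.48 and 6.73 FPKM in M-81E-CK, with a difference of 2.29 (limma interaction adjusted p = 0.00953). Its CK level in M-81E was thus above that in Roma.

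Other large changes in Roma were also called in M-81E. Beta-amylase SORBI_3001G293800 had 28.6, 28.3 and 24.0 FPKM in M-81E-salt, against 119, 119 and 149 FPKM in M-81E-CK, and the responses were not shown to differ (limma interaction adjusted p = 0.484). The O-methyltransferase SORBI_3009G197400 had 4.20, 5.88 and 5.39 FPKM in M-81E-salt, against 33.3, 33.9 and 38.5 FPKM in M-81E-CK (limma interaction adjusted p = 0.438). The raffinose enzyme SORBI_3007G219900 likewise had 5.27, 4.07 and 4.98 FPKM in M-81E-salt, against 26.2, 23.4 and 40.9 FPKM in M-81E-CK (limma interaction adjusted p = 0.482). At these genes the salt and CK libraries were apart in each line.

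By list, wall loosening genes gave 12 down calls in Roma and 1 in M-81E, with median log2 ratios of -0.65 and 0.06. Phosphate starvation gave 7 and 0, with medians of -0.38 and 0.07, and water channels 5 and 3, with medians of -0.41 and 0.00. The interaction passed the adjusted p in limma for 2 wall loosening members with a lower response in Roma and 0 with a higher one. For phosphate starvation these were 4 lower and 2 higher, and for water channels 1 lower and 1 higher. Differences between whole lists were not tested.

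**Figure D5:**
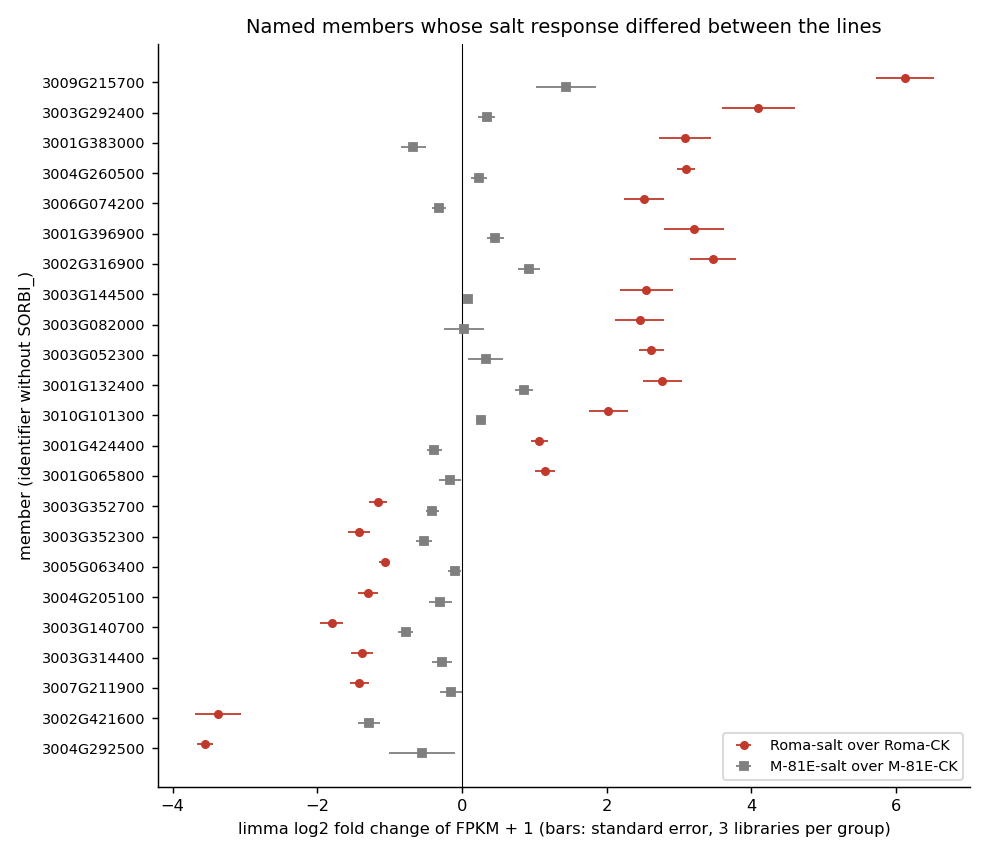
Limma log2 fold change of FPKM + 1 with its standard error, 3 libraries per group, in Roma (red circles, upper of each pair) and in M-81E (grey squares, lower), for the 23 named members whose response differed between the lines at an adjusted p under 0.05. The Roma points reach from 6.12 (SORBI_3009G215700) to -3.55 (SORBI_3004G292500), and the M-81E points stay closer to 0 at each of the 23 members. These members were named for their changes in Roma, which favors this pattern.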

How the data were processed

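Per the labels and the methods of the study, root RNA of 4 groups (Roma-salt, Roma-CK, M-81E-salt and M-81E-CK, 3 libraries each) was sequenced, and reads were processed with Cutadapt, Bowtie2, TopHat2 and StringTie. The labels name a kit for small RNA, while the methods describe ribosomal RNA depletion with strand information. Versions and the genome build were not given in the sources used here. The authors deposited 1 table of FPKM per locus, without read counts, and 0 columns were left unmatched to a sample. Groups and replicate numbers came from the sample titles.

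Loci above 0 FPKM in at least 1 Roma library entered a limma fit (version 3.58.1, R 4.3.3) of log2(FPKM + 1) with a variance trend in eBayes. Log2 fold changes on this scale understate changes at low FPKM. Calls used a p under 0.05 and a log2 ratio of group means of at least 1 in size, after the thresholds of the study, which used Ballgown. The Benjamini-Hochberg adjustment covered all loci tested. The interaction was fitted over 12 libraries. A two-sided exact permutation test over 20 assignments cannot go below p = 0.1 with 3 libraries against 3, which is its value at the called genes named by the rule below. No set was tested. Loci were grouped by 49 lists of GO terms and descriptions, of which 5 had no member, 13 lists added after the data had been seen (proton ATPases, galactosyltransferases, dirigent-type proteins, chitinases, serine carboxypeptidases, plant-type cell wall organization, transition metals, hydrogen peroxide, catalases, mitochondrial import, transcription factors, kinases and laccases), and 5 marker lists. The members and all lists were chosen with earlier results of these data known. Genes were named if they passed the call and the adjusted p without overlap, as the 8 largest changes in each direction or up to 3 per list, GO term and direction, or as the most abundant member of a list or term with no such gene. Of 136 members that met this rule, 51 were named, selected by function with their values known. The 5 called water channels were named outside this rule.

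Relative depth came from the commonest ratio of values at loci with at most 0.3 FPKM. The fit of Roma-salt against Roma-CK was checked on 32262 simulated loci, of which 200 had known changes. Of the changed loci, 91.5% were called and 28.5% passed the adjusted p. Of the simulated loci past the adjusted p, 12.3% were unchanged, which is above the nominal rate of the adjustment. Tables were handled in pandas 2.3.3 and numpy 2.4.6 under Python 3.11.15, permutations in scipy 1.17.1, and plots in matplotlib 3.10.9. The alternatives were a pseudocount of 0.1, a fit limited to loci averaging 1 FPKM or more, members averaging 5 FPKM or more, rescaled libraries, 1 prior variance, the linear model of Ballgown, all 12 libraries in the fit, limma's fold change as threshold, a replicate block, and each library left out. Restriction to members above 0 in all 6 libraries or with 1 gene name, and omission of each M-81E library, were added after the data had been seen.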

Additional observations from a re-analysis of the deposited data

Results flagged for a closer look

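At 23 named members the salt response differed between Roma and M-81E by the limma interaction (adjusted p under 0.05, Roma response minus M-81E response on the log2 scale, 3 libraries per group). The response was higher in Roma at SORBI_3009G215700 (4.68), SORBI_3003G292400 (3.76), SORBI_3001G383000 (3.76), SORBI_3004G260500 (2.86), SORBI_3006G074200 (2.84), SORBI_3001G396900 (2.75), SORBI_3002G316900 (2.54), SORBI_3003G144500 (2.47), SORBI_3003G082000 (2.42) and SORBI_3003G052300 (2.29). The late embryogenesis abundant gene SORBI_3009G215700 was also called up in M-81E, with a log2 ratio of mean FPKM of 1.77 there. Smaller positive differences were found at the proton ATPase SORBI_3001G132400 (1.91), the pyruvate dehydrogenase subunit SORBI_3010G101300 (1.76), SORBI_3001G424400 (1.45) and the glutathione transferase SORBI_3001G065800 (1.32).

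The response was lower in Roma at SORBI_3004G292500 (-3.0), SORBI_3002G421600 (-2.08), SORBI_3007G211900 (-1.27), SORBI_3003G314400 (-1.09), SORBI_3003G140700 (-1.02), SORBI_3004G205100 (-1.0), SORBI_3005G063400 (-0.98), SORBI_3003G352300 (-0.91) and SORBI_3003G352700 (-0.75). All 23 differences kept their sign in every other interaction fit tried, and between 13 and 23 of them passed the adjusted p there, except with the replicate block, where 2 did.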

How the results depend on the processing

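The 644 up and 731 down calls became 287 and 335 for members averaging 5 FPKM or more, and 415 and 470 with limma's fold change as the threshold, and stayed within 1.5 times under the other settings. The 253 up and 201 down members past the adjusted p became 899 and 841 with all 12 libraries in the fit, 510 and 457 in a fit limited to loci averaging 1 FPKM or more, and 429 and 357 with 1 prior variance. They became 2 and 12 with the linear model of Ballgown and 0 and 0 with the replicate block in limma, where 1324 and 1374 members had an unadjusted p under 0.05, against 1892 and 1843 without the block. With a library left out they ranged from 16 to 84 and from 32 to 74. The 194 and 175 members that differed between the lines became 4 and 4 with the replicate block, and ranged from 92 to 182 and from 68 to 159 with a library left out. Whether libraries with the same number were grown or harvested together was not given in the sources used here. Their deviations from the group means had correlations of -0.05 to 0.00 in Roma, beside -0.03 to 0.08 for other numbers. Such correlations cannot decide whether the libraries were paired. The block left 607 and 683 calls. The balance of up and down totals was not stable. Calls numbered 713 up and 659 down without Roma-CK1 and 541 and 529 with the linear model of Ballgown, and down exceeded up past the adjusted p in every fit without 1 library except that without Roma-salt3. The 50 members named by the rule with a call kept it in all 13 other fits, but their highest adjusted p over these fits was 0.152 to 0.237. Of the 5 called water channels, named outside the rule, the list kept 4 down calls without Roma-CK2, Roma-CK3, Roma-salt1 or Roma-salt3. Of 126 members that met the naming rule with a call, 114 kept it. Fewer libraries leave fewer degrees of freedom, and other causes were not tested. FPKM without counts gives no counting error, so low members are the least certain.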

Other observations

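Serine carboxypeptidases, enzymes that trim proteins or, in some family members, transfer acyl groups, fell at 8 of 33 members in Roma (24.2%) and rose at 0 by limma p under 0.05 with the fold threshold, against 4.67% and 4.11% of all members. Their median log2 ratio was -0.48, and they summed to 251, 280 and 273 FPKM in Roma-salt, against 325, 297 and 312 FPKM in Roma-CK, without overlap. Defense genes against pathogens rose at 15 of 188 members (7.98%) and fell at 7 (3.72%), with a median of 0.02. Genes for binding of transition metals rose at 8 of 57 members and fell at 4, with 4 up calls without Roma-CK3. Sugar transport had 4 up and 7 down calls among 90 members, and auxin 9 up and 8 down among 168, with medians of -0.03 and 0.01, and without Roma-CK3 auxin had 6 up and 9 down. Genes of electron transport at the mitochondrial NADH dehydrogenase, listed as a sign of RNA quality, had 5 members without a call and summed to 147, 147 and 148 FPKM in Roma-salt, against 123, 108 and 147 FPKM in Roma-CK.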
